A study of Mus musculus with 211 samples.

Results

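Microtubules are polymers of dimers of alpha and beta tubulin, and mammals carry several genes, called isotypes, for each of these subunits. Dividing cells rebuild their microtubules into the mitotic spindle, while many cells outside division use them for transport and shape. Supporting cells (SCs) of the cochlea, above all pillar cells and Deiters cells, are known for dense bundles of microtubules. Stathmin, the product of *Stmn1*, binds free tubulin dimers and favours the disassembly of microtubules.

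The 9 genes described here were 4 alpha tubulin isotypes (*Tuba1a*, *Tuba1b*, *Tuba1c* and *Tuba4a*), 4 beta tubulin isotypes (*Tubb2a*, *Tubb4b*, *Tubb5* and *Tubb6*) and *Stmn1*. They were taken by name from the 48709 genes of the deposited read count table, through their Ensembl identifiers. The table held 211 single cells of CD1 mice of the Lfng-EGFP model, a bacterial artificial chromosome transgene in which the regulatory sequence of *Lfng* drives green fluorescent protein (GFP). All cells were sorted by GFP from adult cochleae and captured on a Fluidigm C1 chip, 48.3% of them at postnatal day 60 (P60) in 8 captures and 51.7% at postnatal day 120 (P120) in 4 captures. Both ages carried the same transgene and had no further treatment. Each capture pooled the cochleae of several mice, so the capture is the replicate here and the animals within it cannot be told apart. Cells held between 41 and 5361476 reads on genes, the median cell 735206 reads at P60 against 772653 at P120. Capture 10c was shallow, with a median of 451 reads in its 13 cells.

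The cells are labelled as adult cochlear SCs. A list of 15 SC markers took 0.0518% of all reads, between 0.00553% and 1.50% by capture, and 16 of the 211 cells had 10 or more reads of at least 3 of them. Every marker of that list had a read in some cell. A list of 11 neutrophil genes took 16.1% of reads, between 2.15% and 26.2% by capture, and 197 cells passed the same count. Of 10 general leukocyte genes, 175 cells passed it. The cells are therefore called GFP-sorted cells below.

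A cell was called Mki67/Top2a-positive when it held 10 or more reads of *Mki67* or of *Top2a*, genes of the proliferating cell, which gave 62 positive and 149 negative cells. The positive share was 25.5% at P60 (95% exact Clopper-Pearson interval 17.4% to 35.1%) and 33% at P120 (24.3% to 42.7%). The mean over captures was 19.6% ± 20.0 (SD, 8 captures of P60) against 29.7% ± 15.3 (SD, 4 captures of P120). Intervals here cover counting error only, since cells of one capture share animals and chip. Depth differed between the classes: the median positive cell held 1802923 reads and the median negative cell 496561. All 62 positive cells passed the leukocyte count, 61 the neutrophil count and 10 the SC count. Of the positive cells 49 (79%) also held 10 or more reads of a granulocyte precursor gene (*Elane*, *Mpo*, *Prtn3*, *Ctsg* or *Ms4a3*), against 25 (16.8%) of the negative cells.

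The isotype genes lie apart in the genome, with *Tuba1a*, *Tuba1b* and *Tuba1c* in one cluster on chromosome 15 of GRCm38. *Tuba1b* (ENSMUSG00000023004.8) runs there from 98931425 to 98934565 on the minus strand, *Tuba1a* (ENSMUSG00000072235.5) from 98949837 to 98953703 on the minus strand, and *Tuba1c* (ENSMUSG00000043091.8) from 99029891 to 99038110 on the plus strand. *Tuba4a* (ENSMUSG00000026202.13) is on chromosome 1, *Tubb4b* (ENSMUSG00000036752.4) on chromosome 2, *Stmn1* (ENSMUSG00000028832.11) on chromosome 4, *Tubb2a* (ENSMUSG00000058672.6) on chromosome 13 and *Tubb5* (ENSMUSG00000001525.10) on chromosome 17. *Tubb6* is ENSMUSG00000001473.6.

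The coding sequences of the clustered alpha isotypes were nearly alike, which bears on every isotype value below. Against *Tuba1b*, the coding bases were 98.3% identical in *Tuba1a* and 98% in *Tuba1c*, but 85.3% in *Tuba4a*. Against *Tubb5* they were 82.2% identical in *Tubb4b* and 84.6% in *Tubb2a*. Isotypes are known to differ most at their carboxyl-terminal tails, where enzymes add and remove residues, and *Tuba4a* is known to encode an alpha tubulin without the final tyrosine of the others. The last 60 coding bases before the stop codon are shown 5′ to 3′ for the main beta isotypes, whose levels the results turn on. Capitals mark bases of *Tubb4b* that differ from *Tubb5* in an alignment of the whole coding sequence. They also mark bases of *Tubb4b* with no partner in *Tubb5*, whose coding sequence is shorter (1332 against 1335 bases).
Tubb5, chr17:35834985-35835044, minus strand: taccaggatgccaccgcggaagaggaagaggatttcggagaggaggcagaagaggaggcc
Tubb4b, chr2:25222311-25222370, minus strand: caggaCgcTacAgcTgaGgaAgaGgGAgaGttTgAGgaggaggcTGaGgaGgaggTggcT

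In this stretch 19 bases of *Tubb4b* differed from *Tubb5* or had no partner there. Over the whole main transcript, 70.7% of the 90-base windows of *Tuba1b* also occurred unchanged in a transcript of another gene, most often *Tuba1c* (50.3%). The share was 66% for *Tuba1a*, 54.7% for *Tuba1c*, 39.4% for *Tubb2a*, 32.3% for *Tubb4b* and 27.9% for *Stmn1*. No window of *Tuba4a*, *Tubb5* or *Tubb6* was shared. The library reads were 90 bases long and paired, so reads of the *Tuba1* genes could be split between copies or lost in counting, and comparisons among these genes are uncertain to that extent.

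The 9 genes covered a wide range of levels. *Tubb5*, a beta isotype found in most tissues, was the most abundant, with 267073 reads. On the RPKM scale (reads scaled by exon length and by library total), which allows levels of different genes to be compared, the summed cells gave 365 RPKM for *Tubb5*, 143 for *Tuba1c*, 128 for *Tuba1b*, 97.2 for *Tuba4a*, 58.1 for *Tubb4b*, 54.3 for *Stmn1* and 50.5 for *Tuba1a*. *Tubb6* was at 2.78 RPKM and *Tubb2a* at 0.265 RPKM. Sums of reads weigh deep cells more than shallow ones.

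The captures varied by more than the steps between neighbours in that order. *Tubb5* averaged 353 ± 469 RPKM and *Tuba1c* 117 ± 69 RPKM (SD, n = 12 captures), and *Tubb5* was above *Tuba1c* in 8 of 12 captures. *Tuba1c* was above *Tuba1b* in 8 captures, *Tuba1b* above *Tuba4a* in 8, and *Tuba4a* above *Tuba1a* in 9. *Tuba1a* was above *Stmn1* in 6 captures, as was *Stmn1* above *Tubb4b*. The clear step came below, where *Tubb4b* was above *Tubb6* in 10 captures.

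A read of *Tuba1c* was found in 66.8% of cells, the widest of the 9 genes, followed by *Tubb5* (54.5%), *Tuba4a* (53.6%), *Tuba1b* (48.8%), *Tuba1a* (37.9%), *Tubb4b* (30.8%) and *Stmn1* (28.9%). *Tubb6* was found in 12 cells and *Tubb2a* in 4. Thinning the 164 cells with at least 50000 reads to that depth left an expected share of 57.1% for *Tuba1c*, 42.9% for *Tubb5*, 39.8% for *Tuba4a*, 36.4% for *Tuba1b*, 25.8% for *Stmn1*, 22.4% for *Tubb4b* and 15.5% for *Tuba1a*. *Tuba1a* was therefore often a trace: its cells with a read held a median of 2 reads, against 192 in those of *Stmn1*, 128 in those of *Tubb5* and 82 in those of *Tuba4a*.

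Much of each gene's reads came from few cells. The top 5 cells held 76.8% of the *Tuba1a* reads, 99.5% of the *Tubb6* reads and all of the *Tubb2a* reads, but 26.9% of the *Tuba1c* reads. A single cell of capture 38 held 36005 reads of *Tubb5*, or 13.5% of all, and a single cell of capture 32 held 879 of the 1493 *Tubb6* reads. In the small capture 21c, 1 cell held all 3677 *Tuba1a* reads of the capture.

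Between the ages no member passed the test. Applied to the sums per capture, the quasi-likelihood test of edgeR (Benjamini-Hochberg adjusted) called 10 of the 8346 genes tested, or 0.12%, and 0 of the 7 members that passed its filter on low counts. At an unadjusted p under 0.05 there were 443 genes and 0 members, and DESeq2 called 0 of the 6 members to which it gave an adjusted p. *Tubb2a* and *Tubb6* did not pass the filter. The median log2 fold change of all genes tested was 0.26, and that of the 7 members was 0.26.

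*Tubb5* stood at a lowest value of 0.214, a median of 591 and a highest value of 4775 CPM (counts scaled to the library total) in the 8 captures at P60. At P120 it stood at 828 CPM in capture 28, 766 in capture 32, 1.42 in capture 36 and 3896 in capture 38. The ages overlapped over almost their whole range. Its log2 fold change was 0.65 ± 1.32 (SE), and without capture 38 it was -1.12.

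*Tuba1b*, one of the widely expressed alpha isotypes, ran from 0.212 through a median of 66.1 to 447 CPM at P60. At P120 it was at 260 CPM in capture 28, 514 in capture 32, 0.767 in capture 36 and 260 in capture 38, and its log2 fold change was 1.01 ± 1.60 (SE). Captures with few positive cells were low. At P60 capture 10c with 0 positive cells was at 16.8 CPM, capture 20c with 0 at 2.49, capture 21c with 0 at 3.64, and capture 19c with 1 of 7 at 0.212. Captures 31, 40 and 9c, with 4 of 23, 12 of 24 and 8 of 19 positive cells, were at 162, 115 and 447 CPM. Capture 17c, in which 1 of 3 cells was positive, was at 329 CPM, and all of its 1093 reads came from 1 cell. Capture 36 at P120 had 2 positive cells of 16.

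*Stmn1* ran from 0 through 80.5 to 221 CPM at P60. At P120 its captures 28, 32, 36 and 38 were at 63.5, 211, 0.11 and 154 CPM, a log2 fold change of 0.26 ± 1.77 (SE). Its direction turned under 2 of the other settings and without capture 32 or 38, given in the closing section. *Tuba1a*, the alpha isotype best known from developing neurons, had the largest size of change, -1.50 ± 1.85 (SE) on the log2 scale. It rested on capture 21c at 787 CPM, and without that capture the value was 0.05. *Tuba1c*, *Tuba4a* and *Tubb4b* had log2 fold changes of 0.27, -0.57 and -0.91, each smaller than its standard error of 1.51, 1.53 and 1.89. Among the Mki67/Top2a-negative cells alone, 6 of the 7 members were lower at P120, with 0 called. There *Tuba1a* was at -6.05 ± 2.92 (SE), *Tubb4b* at -5.43 ± 3.17 (SE) and *Tuba4a* at -1.55 ± 2.14 (SE), with adjusted p of 0.627, 0.745 and 0.963 by edgeR. The median of the members was -2.74 and that of all genes tested 0.24.

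**Figure D1:**
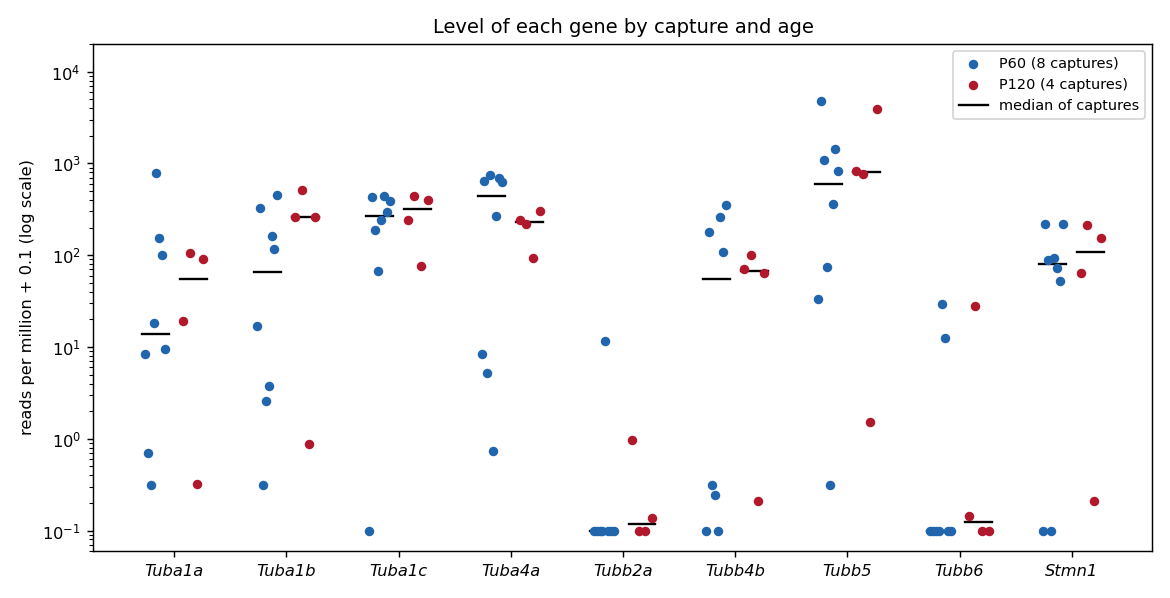
Level of each gene in CPM plus 0.1 (log scale) in the 8 captures at P60 (blue) and the 4 captures at P120 (red), 1 point per capture, with a bar at the median of the captures. The ages overlap for all 9 genes, and the P120 captures of Tubb5 span 1.42 to 3896 CPM.

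The shares of cells also lay within the spread of captures. A read of *Tuba1c* was found in 57.8% of P60 cells and 75.2% of P120 cells, and the captures averaged 49.6% ± 28.6 (SD, n = 8) and 73% ± 16.7 (SD, n = 4). *Tubb4b* was found in 38.2% of P60 cells and 23.9% of P120 cells, with capture averages of 27.9% ± 24.3 and 21.1% ± 12.3. For *Tuba1b* the shares were 48% and 49.5%, for *Tubb5* 51% and 57.8%, and for *Stmn1* 27.5% and 30.3%.

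The contrast between positive and negative cells was far wider. It was tested on reads summed per capture and class in the 6 captures with at least 3 cells of each class (31, 40 and 9c at P60, and 28, 32 and 38 at P120), with the capture as a block. *Mki67* and *Top2a* themselves were not tested. *Tubb5* rose in positive cells, and *Tuba1b*, *Stmn1*, *Tubb4b* and *Tuba4a* were higher there in 6 of 6 captures without passing the threshold. Of 7068 genes tested, 93 were called higher in positive cells (1.32%) and 87 lower (1.23%), and of the 7 members tested 1 was called higher and 0 lower. The median log2 fold change of all genes tested was 1.02, so each value below is to be read against that shift. The median of the 7 members was 3.90. All genes higher in positive cells in 6 of 6 captures made up 15.7% of those tested, against 5 of the 7 members.

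*Tubb5* was at 1077 to 6981 CPM in the positive cells of the 6 captures and at 2.68 to 219 CPM in the negative cells. In positive cells it was at 1502 CPM in capture 28, 1077 in 31, 1109 in 32, 6981 in 38, 2887 in 40 and 1221 in 9c. In the negative cells of the same captures it was at 29.6, 107.5, 166, 2.68, 219 and 34.1 CPM. The classes did not overlap. Its log2 fold change was 3.90 ± 0.90 (SE), with an adjusted p of 0.0214 by edgeR's quasi-likelihood test. The call was lost without capture 9c, with a log2 fold change of 3.73 and an adjusted p of 0.076. Without that capture 22 of 7152 genes were called higher, against 93 of 7068 with it.

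*Tuba1b* was at 479 CPM in the positive cells of capture 28, 553 in 31, 805 in 32, 465 in 38, 192 in 40 and 656 in 9c. In negative cells it was at 1.43, 26.03, 3.13, 1.47, 49.9 and 31.9 CPM. The classes did not overlap, and capture 40 had both the lowest positive and the highest negative value. The log2 fold change of 5.14 ± 1.41 (SE) had an adjusted p of 0.0515 by edgeR, just outside the threshold of 0.05, and without capture 40 it was 5.89 with an adjusted p of 0.0398.

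*Stmn1* was at 117, 248, 302, 277, 108.7 and 313 CPM in the positive cells of captures 28, 31, 32, 38, 40 and 9c. In their negative cells it was at 0, 11.6, 50.98, 0.173, 2.99 and 35.9 CPM, again without overlap. Its log2 fold change was 4.66 ± 1.80 (SE) with an adjusted p of 0.168 by edgeR. Genes whose 6 positive values all lay above their 6 negative values made up 5.29% of those tested, against 3 of the 7 members (*Tuba1b*, *Tubb5* and *Stmn1*).

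*Tubb4b*, a beta isotype that also builds cilia, averaged 231 ± 155 CPM in positive and 51.01 ± 102.3 CPM in negative cells (SD, n = 6 captures). Its classes overlapped through capture 31, where positive cells were at 269 and negative cells at 258 CPM. The log2 fold change was 4.80 ± 1.95 (SE), with an adjusted p of 0.186 by edgeR. *Tuba4a* averaged 640 ± 282 CPM in positive and 117 ± 134 CPM in negative cells, with a log2 fold change of 2.57 ± 1.04 (SE) and an adjusted p of 0.186.

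*Tuba1c* and *Tuba1a* showed no such pattern. *Tuba1c* averaged 358 ± 89.8 CPM in positive and 345 ± 162 CPM in negative cells (SD, n = 6 captures) and was higher in positive cells in 3 of 6 captures. Its log2 fold change was -0.75 ± 0.81 (SE, adjusted p of 0.665 by edgeR), and its direction turned in cells thinned to 50000 reads (0.04). *Tuba1a* was at 62.2 ± 79.8 CPM in positive and 67.3 ± 100.9 CPM in negative cells, with a log2 fold change of 1.96 ± 2.96 (SE). It was lower in the positive cells of captures 31 and 40 and higher in those of the other 4 captures, and its direction turned without the capture block (-0.97).

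**Figure D2:**
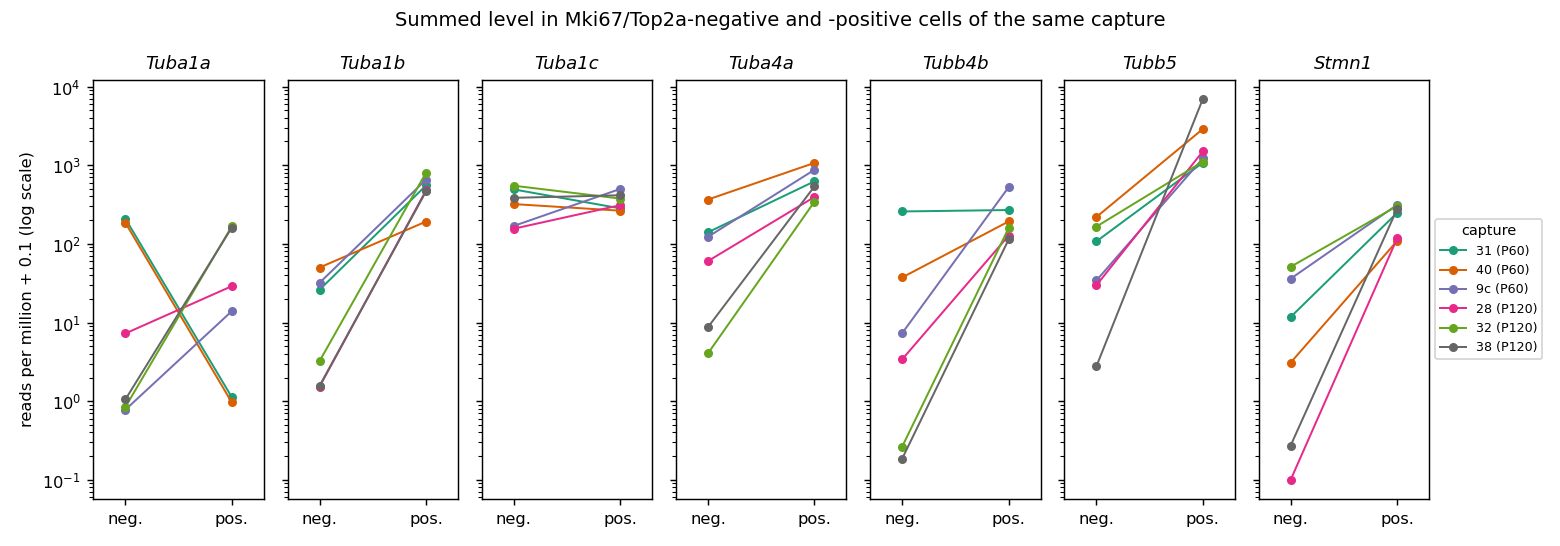
Summed level in CPM plus 0.1 (log scale) of 7 genes in the Mki67/Top2a-negative (neg.) and Mki67/Top2a-positive (pos.) cells of the same capture, 1 line per capture. Tuba1b, Tubb5 and Stmn1 lines all climb and their classes do not overlap, Tuba1c lines are flat or cross, and Tuba1a lines run in both directions.

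DESeq2 on the same sums called *Tuba1b*, *Tuba4a*, *Tubb4b*, *Tubb5* and *Stmn1* higher in positive cells, 5 of 7 members, beside 1637 of 7068 genes (23.2%). Its log2 fold change was 4.57 for *Tuba1b* (adjusted p of 2.25e-06) and 4.28 for *Stmn1* (adjusted p of 0.000598). DESeq2 called more of the members than edgeR, and more of all genes. In cells thinned to 50000 reads, edgeR called *Tubb5* (4.39, adjusted p of 0.004) and *Tuba1b* (5.06, adjusted p of 0.0182). That fit called 51 of 3404 genes higher in positive cells.

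The precursor genes and the sequencing run moved with the classes. Among the precursor-positive cells alone, the log2 fold change was 2.59 ± 1.25 (SE) for *Tubb5* and 4.34 ± 2.21 (SE) for *Tuba1b*, with adjusted p of 0.582 and 0.587 by edgeR. Among the precursor-negative cells it was 7.28 ± 3.01 (SE) for *Tubb5* and 4.72 ± 3.53 (SE) for *Tuba1b*, with adjusted p of 0.709 and 0.778. With the capture and sequencing run together as the block, *Tubb5* was at 3.78 ± 1.17 (SE) with an adjusted p of 0.067. These 3 settings called 0 of the members. The fit of precursor-positive cells called 0 of all 6960 genes tested and that of precursor-negative cells 0 of 2420, so their counts do not set the members apart. The run block called 67 of 6266 genes higher and 10 lower. The precursor-negative setting and the run block were added after seeing the data.

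Summed over cells, all 4 combinations of precursor and class were in order for *Tuba1b*. It was at 547 CPM in the 49 cells positive for both, 222 CPM in the 13 cells positive for *Mki67* or *Top2a* only, 57.5 CPM in the 25 cells positive for a precursor gene only and 3.84 CPM in the 124 cells negative for both. *Tubb5* was at 2439, 2584, 263 and 92.6 CPM in the same groups. *Stmn1* was at 234, 46.4, 13.01 and 18.1 CPM, so the double-positive cells stood apart for stathmin. *Tuba1c* was at 372, 162, 115 and 384 CPM, as high in the double-negative as in the double-positive cells. The groups differed in depth, with median reads of 1810799, 990593, 915721 and 462757, and its part in these summed levels was not tested. After thinning to equal depth, *Tubb5* was expected in 91.9%, 52.6%, 55.1% and 11.7% of cells in these groups. The groups positive for *Mki67* or *Top2a* only and for a precursor gene only were thus close, from 13 and 17 cells. They were also close for *Tuba4a* (38.7% and 41.5%) and *Tubb4b* (15.3% and 16.8%). For *Tuba1b* (49.5% and 30.8%), *Tuba1c* (60.1% and 51.7%) and *Stmn1* (18.3% and 13.2%), the group positive for *Mki67* or *Top2a* only was higher.

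Within the runs, *Tuba1b* was at 555 CPM in positive and 8.69 CPM in negative cells of run S047, at 578 and 51.8 CPM in run S059iso1, and at 235 and 2.05 CPM in run S059iso2. *Tubb5* was at 2149 and 281, 3205 and 220, and 522 and 45.3 CPM. *Stmn1* was at 282 and 49.4 CPM in run S047 and at 260 and 11.6 CPM in run S059iso1, but at 10.9 and 9.27 CPM in the 18 positive and 70 negative cells of run S059iso2. Positive cells were thus higher in each of the 3 runs for *Tuba1b* and *Tubb5*, while the summed level of *Stmn1* was nearly level in run S059iso2. A read of *Stmn1* was found there in 50% of positive and 4.29% of negative cells. The median depth of the positive cells was 1082103, 1894500 and 1026640 reads in the 3 runs.

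The class difference itself was compared between the ages. The interaction term called 0 of 7068 genes (0%) by edgeR, with 173 at an unadjusted p under 0.05, and 0 members. The term of *Tuba1a*, 12.1 ± 5.73 (SE), was the 1 member value with an unadjusted p under that limit. For *Tuba1b* the term was 4.38 ± 2.20 (SE) on the log2 scale, a wider class difference at P120, with an unadjusted p of 0.0557 and an adjusted p of 1. For *Tuba1b* the negative cells at P120 were at 1.43 to 3.13 CPM and those at P60 at 26.03 to 49.9 CPM. For *Stmn1* the term was 5.13 ± 3.94 (SE) and for *Tubb5* 1.74 ± 1.79 (SE). With 1 capture left out, the *Tuba1b* term ran from 3.56 to 4.97. The terms of *Tubb5*, *Stmn1* and *Tuba1a* moved more with single captures. The *Tubb5* term was -0.026 without capture 38, 2.71 without 28 and 4.199 without 32 (unadjusted p of 0.015, adjusted p of 1 by edgeR), and the *Stmn1* term was 1.94 without capture 28 and 2.76 without 38. The *Tuba1a* term was 7.73 without capture 31 and 7.65 without 40, with unadjusted p of 0.336 and 0.342.

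Shares of cells gave the same picture at equal depth. A read of *Tuba1b* was found in 88.7% of positive cells (95% exact Clopper-Pearson interval 78.1% to 95.3%) and 32.2% of negative cells (24.8% to 40.4%). *Tubb5* was found in 95.2% and 37.6%, *Stmn1* in 72.6% and 10.7%, *Tubb4b* in 62.9% and 17.4%, *Tuba4a* in 91.9% and 37.6%, *Tuba1c* in 98.4% and 53.7%, and *Tuba1a* in 62.9% and 27.5%. After thinning to 50000 reads, the expected shares were 78.2% and 11.7% for *Tuba1b*, 83.6% and 18.9% for *Tubb5*, 58.3% and 6.58% for *Stmn1*, and 48.2% and 7.05% for *Tubb4b*. For *Tuba1c* they were 77.1% and 45.2%, so its share of cells differed between the classes although its summed level did not separate them.

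The reads of *Mki67* and *Top2a* were also binned by the larger of both counts. At equal depth *Tuba1b* was expected in 11.3% of cells with no read of either, 12.2% of those with 1 to 9 reads, 36.8% of those with 10 to 99 and 84.4% of those with 100 or more. The shares of *Stmn1* were 6.22%, 7.00%, 23.8% and 63.5%, and those of *Tubb5* were 13.5%, 25.1%, 53.1% and 88.2%. *Tuba1c* stayed at 43%, 47.7% and 40.7% in the lower bins and reached 82.6% in the highest. The bin of 10 to 99 reads held 9 cells, of which 8 had the depth for thinning.

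**Figure D3:**
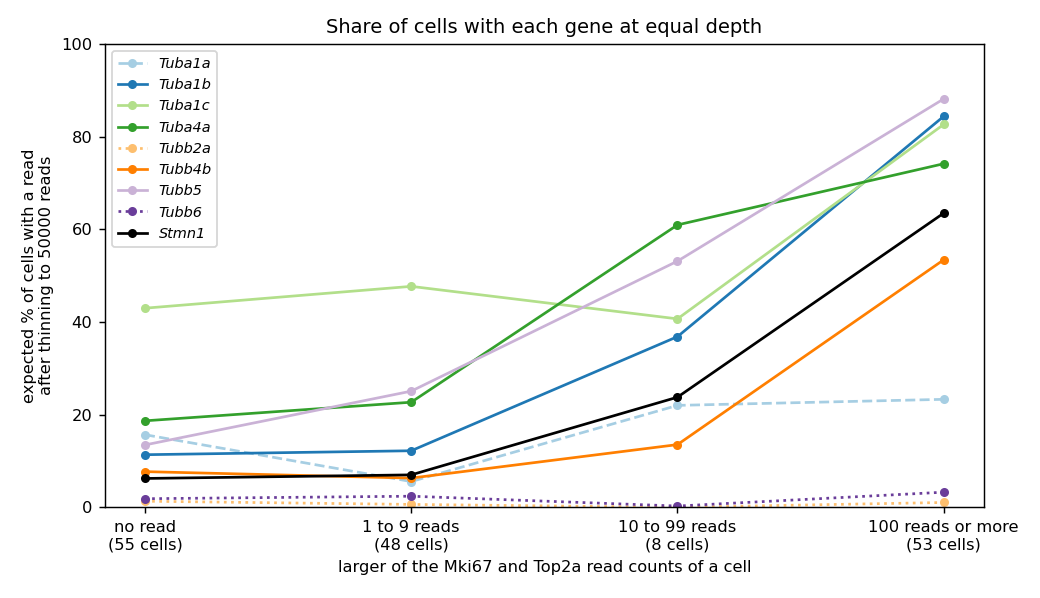
Expected share of cells with a read of each gene after thinning to 50000 reads (vertical axis, percent) against the larger of the Mki67 and Top2a read counts of a cell (horizontal axis), with the number of cells of at least 50000 reads in each bin. Tuba1b goes from 11.3% to 84.4% and Stmn1 from 6.22% to 63.5%, while Tubb2a and Tubb6 stay near the bottom.

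Isotype use was described by the share of each isotype in the summed alpha or beta level, per kilobase of exon. Over all cells *Tuba1c* held 34.3% of the alpha level, *Tuba1b* 30.5%, *Tuba4a* 23.2% and *Tuba1a* 12%. This order depended on the scaling. With each isotype scaled by its number of unshared 90-base windows, an alternative added after seeing the data, *Tuba1b* held 42.5%, *Tuba1c* 32.9%, *Tuba1a* 13.4% and *Tuba4a* 11.2%. In negative cells *Tuba1c* led with 54.6% and *Tuba1b* held 3.56%, and in positive cells *Tuba1b* led with 43.5% and *Tuba1c* held 24.4%. Of the beta level *Tubb5* held 85.6%, *Tubb4b* 13.6%, *Tubb6* 0.654% and *Tubb2a* 0.0623%. In negative cells *Tubb5* held 55.5% and *Tubb4b* 41.3%, but with the unshared windows *Tubb4b* led there with 52.4% against 44.7%. These sums leaned on 1 cell, which held 4500 of the 6511 *Tubb4b* reads in the negative cells of capture 31. Among the 22 negative cells with at least 20 beta tubulin reads, the median share per cell was 94.9% for *Tubb5* and 0.304% for *Tubb4b*.

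By capture the *Tuba1b* share of alpha tubulin was 49.7% in the positive cells of capture 28, 50.2% in 31, 55.1% in 32, 37.3% in 38, 20.2% in 40 and 43.1% in 9c. In negative cells it was 0.857%, 3.63%, 0.689%, 0.456%, 7.23% and 13.7%. The positive share was higher in 6 of 6 captures and the classes did not overlap. The mean difference was 38.2 percentage points, from 4.42% ± 5.22 to 42.6% ± 12.6 (SD, n = 6). Its two-sided exact sign-flip permutation p was 0.0313, the smallest that 6 captures allow, and 0.125 after adjustment over the 4 isotype tests. With the unshared windows the difference was 50.4 percentage points. It was 29.9 with reads instead of reads per kilobase and 29.3 as a mean of single cells.

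The *Tubb5* share of beta tubulin did not follow the classes. It averaged 80.8% ± 13.98 in positive and 73.9% ± 27.97 in negative cells (SD, n = 6 captures), a difference of 6.84 percentage points with a two-sided exact permutation p of 0.656 and the same value after adjustment. It was higher in positive cells in 4 of 6 captures. In the negative cells of capture 31 it was 19.9%, where *Tubb4b* led, and without that capture the difference was -2.13 percentage points. As a mean of single cells it was 14.7 percentage points, over 5 captures. Captures weighed equally, but the negative cells of captures 38 and 9c gave 33 and 183 beta tubulin reads, against 9646 in capture 31.

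Between the ages, the *Tuba1b* share averaged 15.5% ± 16.6 at P60 (SD, n = 7 captures with at least 20 alpha tubulin reads) and 30.5% ± 21.02 at P120 (SD, n = 4), with a two-sided exact permutation p of 0.197 and 0.394 after adjustment. The *Tubb5* share averaged 69.8% ± 37.2 (SD, n = 7) and 88.2% ± 9.06 (SD, n = 3), with a two-sided exact permutation p of 0.492 and 0.656 after adjustment. The *Tuba1b* difference was smaller than the SD between captures at either age. The *Tubb5* difference was smaller than the SD at P60 but larger than that at P120. The *Tuba1b* difference of 14.98 percentage points was 24.9 without capture 36, 9.53 without capture 32 and 2.96 as a mean of single cells, and the *Tubb5* difference of 18.5 was 6.88 without capture 21c.

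**Figure D4:**
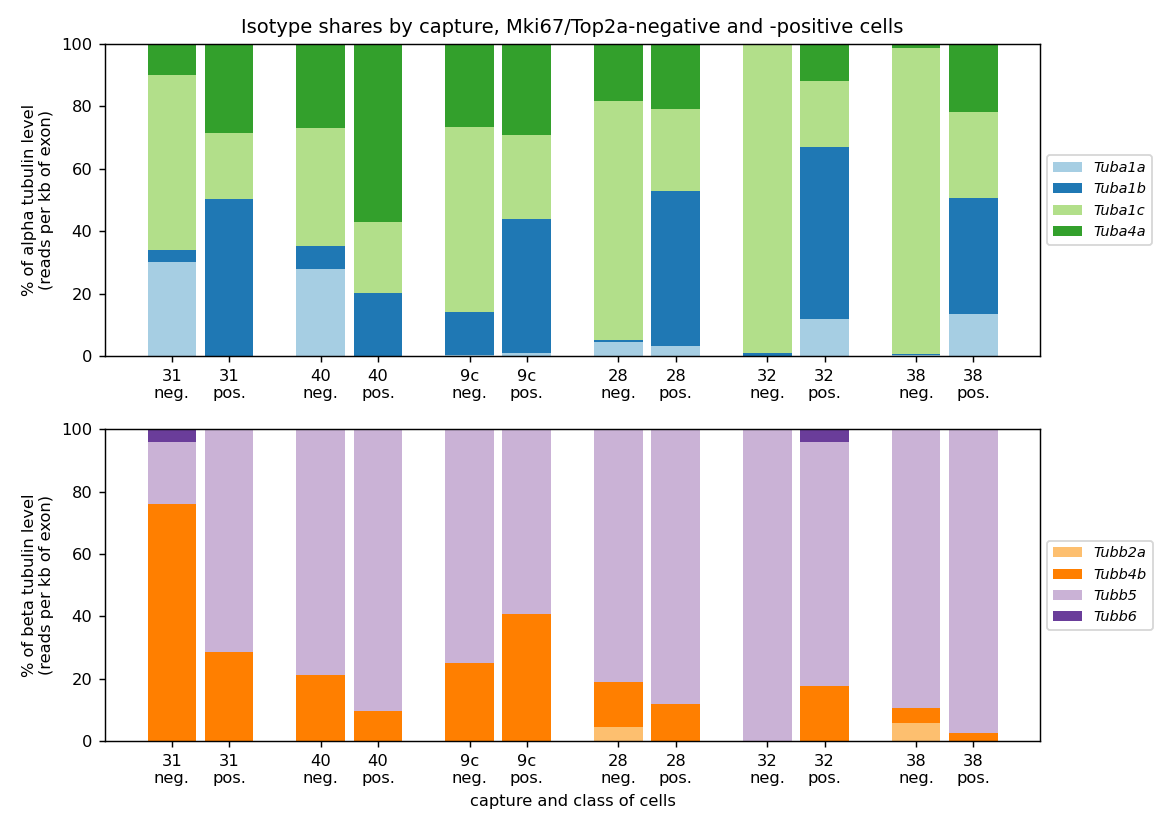
Share of each isotype in the alpha (top) and beta (bottom) tubulin level, in percent of summed reads per kilobase of exon, in the Mki67/Top2a-negative (neg.) and Mki67/Top2a-positive (pos.) cells of 6 captures. Tuba1b takes 20.2% to 55.1% of the alpha level in positive cells and 0.456% to 13.7% in negative cells, and Tubb5 leads the beta level everywhere but in the negative cells of capture 31.

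At least 20 alpha tubulin reads were found in 52 of the 149 negative and 58 of the 62 positive cells. Among these cells, most negative ones drew their alpha level mainly from 1 isotype, and few positive ones did. Of the 110 cells with at least 20 alpha tubulin reads, 48 (43.6%) drew at least 90% of their alpha level from 1 isotype, and *Tuba1c* was that isotype in 32 of them. Among negative cells this held for 39 of 52 (75%), and among positive cells for 9 of 58 (15.5%). *Tuba1c* led in 33 of the 52 negative cells, *Tuba4a* in 10, *Tuba1a* in 5 and *Tuba1b* in 4. Among the 58 positive cells *Tuba1b* led in 25, *Tuba4a* in 19, *Tuba1c* in 10 and *Tuba1a* in 4. In the positive cells 36 held 10 or more reads of 3 or 4 alpha isotypes, against 8 of the negative cells. The positive cells here had a median of 1757947 reads and the negative cells 1167655, and the part of depth in these counts was not tested.

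Of the 72 cells with at least 20 beta tubulin reads, *Tubb5* led in 61, *Tubb4b* in 8, *Tubb6* in 2 and *Tubb2a* in 1. *Tubb5* led in 47 of 50 positive cells and 14 of 22 negative cells. The 2 cells led by *Tubb6* and the cell led by *Tubb2a* were negative cells at P60. At least 90% of the beta level came from 1 isotype in 27 of 50 positive cells and 20 of 22 negative cells, whose median depths of 1809759 and 1774542 reads were close.

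Cells often held several members. In the 164 cells with at least 50000 reads, 44 held 10 or more reads of *Stmn1* and 66 of *Tubb5*, and 41 held both, which is 93.2% of the *Stmn1* cells and 62.1% of the *Tubb5* cells. *Tubb4b* and *Tuba1b* shared 34 cells, 91.9% of the 37 *Tubb4b* cells and 52.3% of the 65 *Tuba1b* cells. The pair with the most shared cells was *Tuba1b* and *Tuba1c*, with 55 cells, 84.6% of the *Tuba1b* and 59.1% of the 93 *Tuba1c* cells. A positive cell held 10 or more reads of a median of 5 members, and a negative cell of 1. The 18 cells with 6 members, the 5 with 7 and the 1 with 8 were positive cells, and 37 of the 41 cells with none were negative.

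Across these 164 cells thinned to 50000 reads, the genes with the pattern most like *Tuba1b*, by Pearson's r of log2(reads + 1) among 2175 genes found in at least 20% of the cells, were *Top2a* (0.83), *Pclaf* (0.74), *Tubb5* (0.73), *Rrm2* (0.70) and *Tagln2* (0.69). *Top2a* also helped to define the classes. For *Stmn1* they were *Tubb5* (0.67), *Gm9800* (0.60), *Tagln2* (0.59), *Tuba1b* (0.58) and *Rrm2* (0.58). *Tuba1c* ranked 425th for *Tuba1b*, with r = 0.36. The cells share captures and libraries, and these values are descriptions without a test.

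Of the other genes of the microtubule system, the mitotic spindle list moved with the classes. Of its 15 genes all were tested, 8 rose in positive cells and 0 fell, and 14 were higher in 6 of 6 captures. Among all genes tested, 1.32% were called higher, 1.23% were called lower and 15.7% were higher in 6 of 6 captures. *Tpx2*, a spindle assembly factor, was at 241 ± 143 CPM in positive and 0.288 ± 0.215 CPM in negative cells (SD, n = 6 captures), with a log2 fold change of 9.02 ± 1.75 (SE) and an adjusted p of 0.0089 by edgeR. *Prc1*, which cross-links the midzone microtubules of the spindle, had a log2 fold change of 9.47 ± 2.02 (SE, adjusted p of 0.0152). *Birc5* and *Aurkb*, subunits of the chromosomal passenger complex, were at 8.95 and 9.46, the kinase *Aurka* at 9.62, the kinesin *Kif4* at 9.98, and the spindle proteins *Ckap2* and *Ckap2l* at 8.13 and 8.80 on the same scale. The median of the list was 8.45 against 1.02 for all genes tested. These genes are known to be high in dividing cells, as are the *Mki67* and *Top2a* that set the classes.

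In the remaining lists 1 gene was called between the classes. Of 15 microtubule associated proteins 12 were tested and 1 rose, *Ckap5*, a microtubule polymerase, at 267 ± 121 CPM in positive and 9.34 ± 21.9 CPM in negative cells (log2 fold change 7.67 ± 1.83 SE, adjusted p of 0.0262 by edgeR). Of 14 tubulin folding cofactors 10 were tested and 0 called, with a median log2 fold change of 3.13 against 1.02 for all genes tested. Of these 10, 4 were higher in positive cells in 6 of 6 captures and 3 had an unadjusted p under 0.05 by edgeR. Among all genes tested, 15.7% were higher in 6 of 6 captures and 1282 of 7068 had such a p. Of 16 tubulin modifying enzymes 3 were tested and 0 called, and of 12 other tubulin genes 2 were tested and 0 called, with a median of 7.70. The other stathmin genes *Stmn2*, *Stmn3* and *Stmn4* did not pass the filter. Among the other alpha and beta tubulin genes *Tuba8* had 4504 reads in 24 cells, *Tubb2b* 97 reads in 2 cells and *Tubb3*, a neuronal isotype, 2 reads in 2 cells. The processed pseudogene *Tubb4b-ps1*, which shares 29.9% of the *Tubb4b* windows, had 122 reads in 24 cells. Between the ages 0 genes of these 6 lists were called.

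Promoter sequence of *Tubb4b* and *Tubb5* is shown because both beta genes were found in most positive cells. RefSeq promoter windows of build GRCm38.p6 were matched for 7 of the 9 members. Searched on both strands were the CCAAT box (CCAAT), the GC box (GGGCGG) and the core of the cell cycle genes homology region (TTTGAA), and capitals mark their copies, none of which overlapped. In the 250 bases before the start, *Tubb4b* held 5 copies of CCAAT, 1 of GGGCGG and 1 of TTTGAA, and *Tubb5* held 2 of CCAAT. *Tuba1b* held 2 copies of the GC box and neither other motif, and *Tuba1c* 1 CCAAT box. Of all 32851 promoter windows cut to the same 250 bases, 33.8% held a CCAAT box, 32.7% a GC box and 16% TTTGAA. In the sequences shown, bases covered by an annotated exon are left out.
Tubb4b, chr2:25224703-25224952, minus strand: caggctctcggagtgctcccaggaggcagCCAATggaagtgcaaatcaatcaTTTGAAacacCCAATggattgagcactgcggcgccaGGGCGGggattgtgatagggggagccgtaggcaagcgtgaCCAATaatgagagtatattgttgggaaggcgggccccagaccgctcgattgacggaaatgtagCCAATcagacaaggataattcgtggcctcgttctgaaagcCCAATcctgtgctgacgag
Tubb5, chr17:35838307-35838551, minus strand: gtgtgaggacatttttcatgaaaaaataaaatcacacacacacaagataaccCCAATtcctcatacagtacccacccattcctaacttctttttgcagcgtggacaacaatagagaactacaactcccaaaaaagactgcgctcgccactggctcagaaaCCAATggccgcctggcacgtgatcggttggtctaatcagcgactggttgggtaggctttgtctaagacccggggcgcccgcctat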

How the data were processed

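Cells were sorted by GFP, captured on a Fluidigm C1 chip and read as paired 90-base reads of full-length cDNA without molecular identifiers. The authors aligned the reads with STAR to GRCm38 and deposited raw read counts per gene and cell, after removing cells taken as endothelial or outlying. Groups (P60, P120) came from the labels, and captures and sequencing runs from the deposited cell table. Gene names, positions and exon lengths were taken from GENCODE vM21, which matched 48349 of 48709 identifiers. No 2 cells or captures held identical counts. The 92 spike-in entries were left out. The coding tails of the alpha isotypes are not reported here.

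Sums of counts over the cells of a capture, or of a class within it, were tested with edgeR 4.0.16 (TMM, filterByExpr, quasi-likelihood test, Benjamini-Hochberg, threshold 0.05), with DESeq2 1.42.0 as an alternative (R 4.3.3). The edgeR fit was also run on simulated counts with fixed dispersions, which were not matched to the spread of these sums. The standard errors given with edgeR values are the size of the log2 fold change divided by the square root of the F statistic. Isotype shares were tested by exact permutation over captures (Python, scipy). The members and lists were chosen with earlier results of these data known. All 9 members are named, and from the other lists the genes that passed the class test. P-values measure the spread between captures, which share strain and handling. Depth per cell ranged from 41 to 5361476 reads.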

Additional observations from a re-analysis of the deposited data

Results flagged for a closer look

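In 43 sets of 4 to 10 capture values, 13 captures lay farther from the others than Dixon's 95% limit. That limit assumes normal values and independent sets. These levels were skewed and the sets shared captures, so the number cannot be set against a chance rate. Most belonged to genes whose reads came from few cells. *Tuba1a* in capture 21c at P60 was at 787 CPM, against 155 in the next capture. In the same capture *Tubb2a* was at 11.6 CPM and 0 elsewhere at P60, and *Tubb6* was at 29.1 CPM against 12.4. *Tubb2a* stood out in capture 28, at 0.881 CPM among the P120 captures, 0.958 in positive cells and 0.79 in negative cells. *Tubb6* stood out in capture 32, at 27.9 CPM among the P120 captures and 43.8 in positive cells, and in the negative cells of capture 31 at 16.7 CPM.

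*Tubb5* in capture 17c at P60 was at 4775 CPM against 1448 in the next, and all of its 15862 reads came from 1 of 3 cells. In the positive cells of capture 38 it was at 6981 CPM against 2887 in the next. *Tubb4b* in the negative cells of capture 31 was at 258 CPM against 37.3, and there the *Tubb5* share of beta tubulin was lowest, at 19.9% against 74.8%.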

How the results depend on the processing

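The number of members called between the classes was 1, and 0 to 2 when 1 capture was left out (0 without capture 9c, 2 without capture 40). It was 5 with DESeq2. It was 2 with upper quartile normalization, without the capture block, in cells thinned to 50000 reads and with classes set at 20 CPM of *Mki67* or *Top2a*. It was 0 with classes set at 1 read, with captures of at least 1 cell in each class, in precursor-positive cells, in precursor-negative cells, and when capture and run together formed the block. The last 2 were added after seeing the data. Over all genes, 4 were called higher and 3 lower of 3353 at 1 read, 6 and 13 of 4855 with at least 1 cell, and 0 in both precursor settings. Upper quartile normalization called 100 and 63 of 7068, and the fit without the capture block 100 and 77 of 7068. Thinned cells gave 51 and 58 of 3404, and classes set at 20 CPM gave 97 and 97 of 7056. Without capture 9c there were 22 and 50 of 7152, and without capture 40 there were 44 and 59 of 6951. The main fit called 93 and 87 of 7068. The cause of these shifts was not tested.

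Among log2 fold changes between the ages, the direction turned in Mki67/Top2a-negative cells for *Tuba1b* (-3.28), *Tubb5* (-2.74) and *Stmn1* (-1.64), with DESeq2 for *Stmn1* (-0.37) and with the sequencing lane as a term for *Tuba1c* (-0.43). When 1 capture was left out, values ran from -2.07 to 0.053 for *Tuba1a*, -0.023 to 0.52 for *Tuba1c*, -1.12 to 1.17 for *Tubb5* and -0.17 to 0.71 for *Stmn1*. Between the classes it turned for *Tuba1a* without the capture block (-0.97) and with *Top2a* alone (-1.43), for *Tuba1c* in thinned cells (0.035), in precursor-positive cells (0.89) and with the run block (0.15), and for *Tuba4a* in precursor-negative cells (-3.20). Sizes moved too. Across settings other than leaving out a capture, values ran from 2.75 to 5.76 for *Tuba1b* and 1.15 to 5.99 for *Tubb4b*. They ran from 2.44 to 5.29 for *Stmn1* and 2.09 to 7.28 for *Tubb5*. The lowest came with *Mki67* alone for *Tuba1b* and *Stmn1*, without the capture block for *Tubb4b* and with classes set at 1 read for *Tubb5*.

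The class difference in the *Tubb5* share ran from -2.13 to 12.6 percentage points when 1 capture was left out, and was 14.7 as a mean of single cells. Upper quartile normalization could not be fitted for the ages. Between the ages the standard errors of the members ran from 1.32 to 1.89 on the log2 scale. With the sequencing lane as a term they ran from 2.00 (*Tubb5*) to 2.64 (*Stmn1*). No paired analysis was possible because the ages share no capture and the replicate numbers only name the cells. This concerns the ages, while the classes were compared within captures.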
